A study of Bos taurus with 36 samples.

Results

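The enzymes described here join fatty acids to glycerol to make the triglyceride of milk fat: GPAT3, GPAT4, AGPAT1, LPIN1, DGAT1 and DGAT2. Their members on the array were all probe sets whose single gene symbol in the array annotation was one of these 6 genes. This gave 8 of the 24016 probe sets that are no controls: 2 for GPAT3 (Bt.11230.1.S1_at and Bt.16666.1.A1_at), 2 for GPAT4 (Bt.3372.2.S1_a_at and Bt.3372.3.S1_a_at; the gene was formerly named AGPAT6) and 1 each for AGPAT1 (Bt.1541.1.S1_at), LPIN1 (Bt.17349.1.A1_at), DGAT1 (Bt.4276.1.S1_at) and DGAT2 (Bt.23550.1.S1_at). A further probe set has no gene in that annotation and is named LPIN1 by the study, which chose it on these same samples. It is no member, and its values are given beside those of LPIN1.

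Milk fat is almost entirely triglyceride, which secretory alveolar cells assemble at the endoplasmic reticulum by the glycerol 3-phosphate pathway. GPAT enzymes place the first fatty acid on glycerol 3-phosphate, AGPAT enzymes add the next to form phosphatidic acid, lipins remove the phosphate to leave diacylglycerol, and DGAT enzymes add the last acyl chain. In bovine mammary tissue GPAT4 and DGAT1 are known for their part in milk fat synthesis, and a variant of DGAT1 is known for its effect on milk fat content.

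Mammary tissue came from 6 multiparous Holstein cows whose udder was milked 4 times a day (4×) on the right side and 2 times a day (2×) on the left side up to day 21 of lactation. From then on both sides were milked 2×, so that on days 23 and 40 4× names the side formerly milked 4×. Biopsies of both sides of every cow on days 21, 23 and 40 gave 6 groups of 6 arrays, 36 in all, and the replicates of a group are separate cows. The day 23 tissue came from fore glands and that of the other days from rear glands, so day 23 and gland position cannot be told apart. The comparisons ask how the sides differed during 4× milking, soon after it stopped, and later in lactation. The right side was always the 4× side, so left or right and milking frequency cannot be told apart.

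Values are log2 signals, and a difference of 1 is a doubling. A level of one probe set was not set against that of another, since probe sets bind their targets unequally. In a piece of whole tissue, fewer cells of a type and less RNA per cell cannot be told apart. Probe sets with a mean under 5 are called dim here, which holds for 7491 of those tested. The array medians lay between 6.04 and 6.15, and the number of cows limits the precision. Markers of secretory alveolar epithelium (caseins, whey proteins, BTN1A1, XDH, ELF5) were bright, with 0 of 13 probe sets dim. Of 12 adipocyte marker probe sets 5 were dim, with means of 4.76 for ADIPOQ and 4.79 and 4.31 for LEP. The array of the 2× gland of cow 1 on day 21 stood apart: its summed epithelial marker signal was 17.38 against 17.62 to 17.73 in the other 5 arrays of that group. Its adipocyte marker sum was 11.84 against 12.10 to 12.56, and its macrophage and leukocyte sum was 11.26 against 11.73 to 12.05. The part of these differences in the results was not tested, and values that moved by over 1.5 times without cow 1 are given with and without that cow where they passed an unadjusted p of 0.05.

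No member probe set passed an adjusted p of 0.05 in any comparison, and the differences below are therefore described by size, by the number of cows that share the direction, and by whether they passed an unadjusted p of 0.05 in the same limma fit. On day 21 the 4× side had a higher level of GPAT3 (Bt.11230.1.S1_at) in 6 of 6 cows, by 0.34 (SE 0.09), and the sides stood the other way in 5 of 6 cows on day 23. GPAT4 and AGPAT1 had the largest single difference between sides on day 21 in cow 1, and means near 0 without it. The annotated LPIN1 probe set and DGAT1 showed no difference past an unadjusted p of 0.05 between sides on any day. The probe set that the study names LPIN1 passed it on day 21, at 0.93, or 0.50 without cow 1. DGAT2, which was dim, was higher in the 4× side on day 40 in 5 of 6 cows, by 0.29 (SE 0.10).

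**Figure D1:**
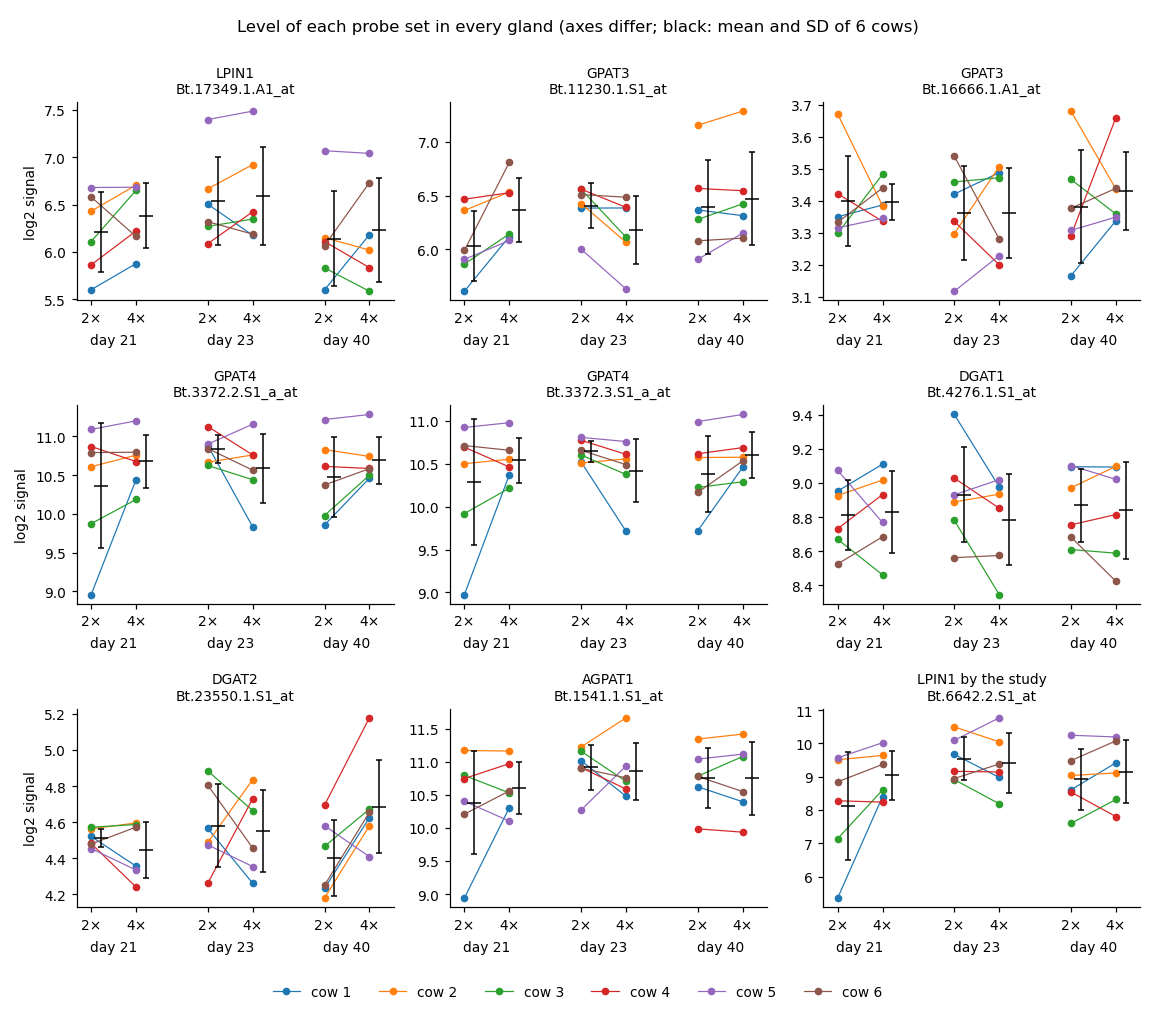
Log2 signal of the 8 member probe sets and of the probe set named LPIN1 by the study, in every gland, with lines joining the sides of one cow on one day and black marks for the mean and SD of 6 cows. Vertical axes differ between panels. The 2× gland of cow 1 on day 21 is the lowest point for both GPAT4 probe sets (8.96 and 8.98) and AGPAT1 (8.94). It is also the lowest for GPAT3 (Bt.11230.1.S1_at, 5.61) and the study's LPIN1 probe set (5.36).

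GPAT3 is one of the enzymes of the first acylation and is also known from adipocytes. In 2× glands on day 21, GPAT3 (Bt.11230.1.S1_at) ran from 5.61 to 6.47 with a median of 5.95. The 4× glands of the same day ran from 6.08 to 6.81 with a median of 6.33. The ranges overlapped, since the cows differed in their overall level, and every cow was higher in its 4× side. On day 23 the 2× glands ran from 6.00 to 6.56 (median 6.47) and the 4× glands from 5.63 to 6.48 (median 6.25). The ranges again overlapped, with cow 5 lowest in both sides. On day 40 they ran from 5.91 to 7.16 (median 6.32) in the 2× side and from 6.10 to 7.29 (median 6.37) in the 4× side, and cow 2 was the highest in both. By mean the groups ran from 2× on day 21 (6.03 ± 0.32, SD, n = 6), through 4× on day 23 (6.18 ± 0.32), 4× on day 21 (6.37 ± 0.30), 2× on day 40 (6.39 ± 0.44) and 2× on day 23 (6.41 ± 0.21), to 4× on day 40 (6.47 ± 0.43). Each neighbour in that order lay within the SD of the next.

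Within cows, the GPAT3 difference on day 21 (4× minus 2×) was 0.51, 0.17, 0.28, 0.06, 0.18 and 0.82 for cows 1 to 6. Cow 6 had the largest and cow 4 the smallest. The mean corresponds to 1.26-fold (limma, adjusted p = 0.180; 95% interval 0.16 to 0.52), and exact permutation of the signs of the 6 differences (two-sided) gave p = 0.031, the smallest that 6 cows allow. The day 23 differences were 0.00, -0.36, -0.45, -0.17, -0.37 and -0.02, so that 5 cows were lower in the 4× side and cow 1 was level. Their mean was -0.23 (SE 0.09; limma, adjusted p = 1.00; exact sign permutation p = 0.062), which passed an unadjusted p of 0.05. It no longer did without cow 2 (-0.20), cow 3 (-0.18) or cow 5 (-0.20). On day 40 the mean difference was 0.08, with a 95% interval from -0.10 to 0.26.

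Between days 21 and 23 the GPAT3 difference moved downward in every one of the 6 cows, by -0.51, -0.53, -0.73, -0.23, -0.55 and -0.85. It was -0.57 in the mean (SE 0.12; limma, adjusted p = 0.386; exact sign permutation p = 0.031) and between -0.63 and -0.51 with any 1 cow left out. The 2 sides contributed in opposite directions: the 2× glands were 0.37 (SE 0.15) higher on day 23 than on day 21, with 6 of 6 cows higher, and the 4× glands were 0.19 (SE 0.15) lower, with 5 of 6 cows lower. The first passed an unadjusted p of 0.05 and the second did not (limma, adjusted p = 0.218 and adjusted p = 0.999), and neither did without cow 1 (0.29 and -0.28). From day 21 to day 40 the change of the difference was -0.26 (SE 0.12; limma, adjusted p = 0.789). The other GPAT3 probe set, Bt.16666.1.A1_at, was dim, with values between 3.12 and 3.68 over all arrays and differences of -0.00, 0.00 and 0.05 on the 3 days. It did not show the pattern of the brighter probe set, and their differences had a correlation of -0.06 over 18 pairs (Pearson's r).

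**Figure D2:**
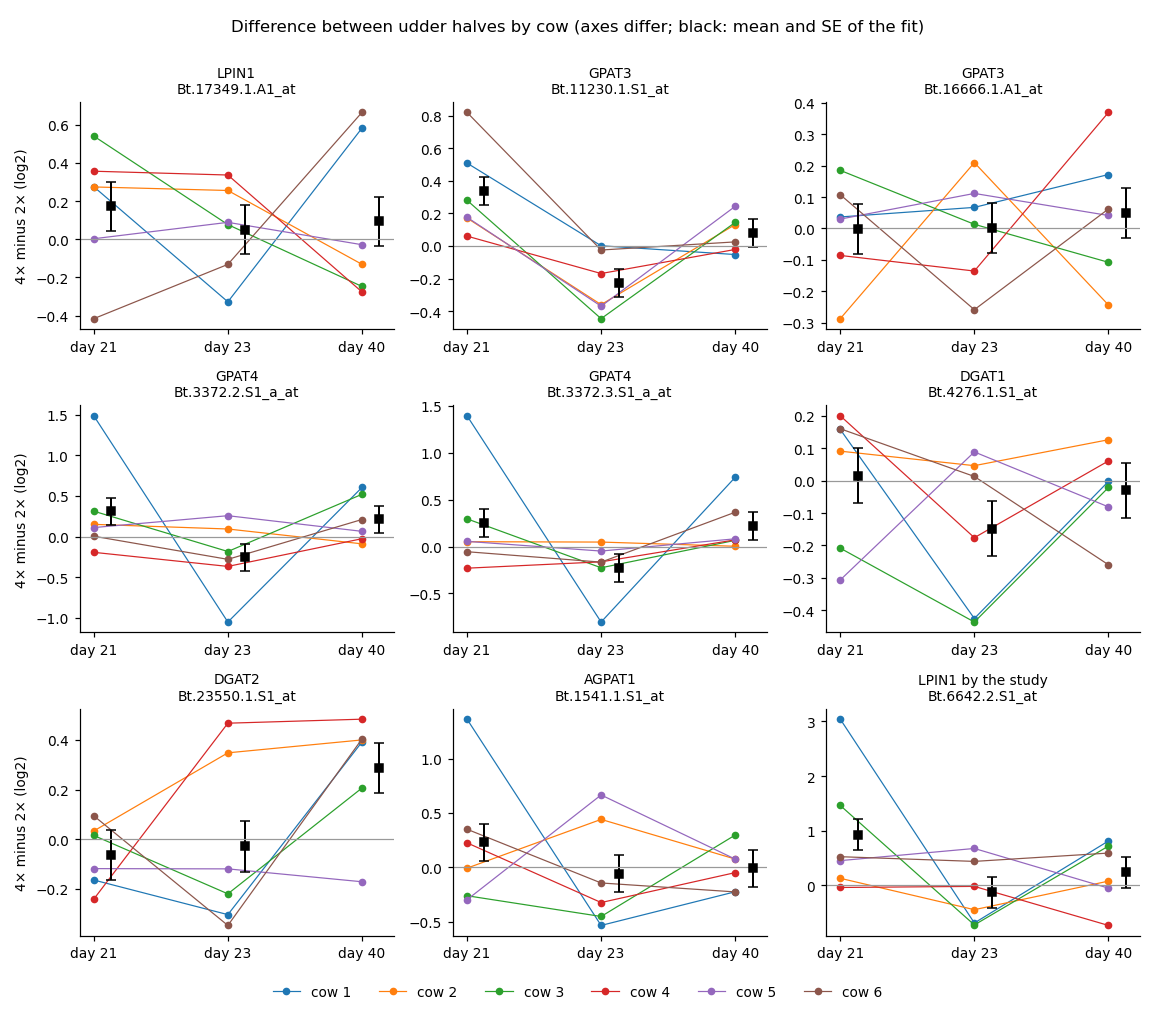
Difference in log2 signal between the 4× and the 2× side of each cow on days 21, 23 and 40, with the fitted mean and SE in black beside the points. For GPAT3 (Bt.11230.1.S1_at) all 6 lines slope down from day 21 to day 23; for GPAT4, AGPAT1 and the study's LPIN1 probe set the line of cow 1 lies far above the others on day 21.

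GPAT4 is the enzyme of the first acylation that is best known in the lactating gland. Its probe set Bt.3372.2.S1_a_at ran from 8.96 to 11.09 (median 10.70) in 2× glands and from 10.19 to 11.20 (median 10.72) in 4× glands on day 21. The medians were nearly the same, and the 2× gland of cow 1 was the lowest, with cow 3 next at 9.87. On day 23 the 2× glands were closest together, from 10.62 to 11.13 (median 10.86), and the 4× glands ran from 9.83 to 11.16 (median 10.66), with cow 1 again lowest but now in its 4× side. On day 40 the values ran from 9.86 to 11.22 (median 10.49) in 2× and from 10.46 to 11.28 (median 10.58) in 4× glands. By mean, 2× on day 21 was lowest (10.36 ± 0.81) and 2× on day 23 highest (10.84 ± 0.18), and the neighbours between them (10.48, 10.59, 10.68 and 10.69) differed by less than their SD.

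The GPAT4 differences on day 21 were 1.48, 0.15, 0.31, -0.19, 0.11 and 0.00 for cows 1 to 6 in that probe set. The mean was 0.31 (SE 0.17; limma, adjusted p = 0.367) and 0.08 without cow 1. On day 23 cow 1 was at -1.05 and the others lay between -0.37 and 0.26, with a mean of -0.25 (SE 0.17; limma, adjusted p = 1.00) that was -0.10 without cow 1. On day 40 the mean was 0.21 (SE 0.17; limma, adjusted p = 0.442), and 0.14 without cow 1. The change of the difference from day 21 to day 23 was -0.57 (SE 0.24; limma, adjusted p = 0.416), which was -0.17 without cow 1, whose own change was -2.53. Probe set Bt.3372.3.S1_a_at gave 0.25, -0.23 and 0.22 on the 3 days and a change of -0.48 (SE 0.21; limma, adjusted p = 0.433), or -0.13 without cow 1. On day 40 this probe set was higher in the 4× side in 6 of 6 cows, by 0.00 to 0.74 (exact sign permutation p = 0.031; limma, adjusted p = 0.382), and its mean was 0.12 without cow 1, the cow with the largest value. The differences of both GPAT4 probe sets followed each other over the 18 pairs, with r = 0.94, or 0.70 over the 15 pairs without cow 1.

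AGPAT1 carries out the next acylation, which yields phosphatidic acid. On day 21, AGPAT1 ran from 8.94 to 11.17 (median 10.57) in 2× glands and from 10.10 to 11.16 (median 10.54) in 4× glands. Only cow 1 was under 10 in its 2× side, and the medians were alike. On day 23 the 2× glands ran from 10.27 to 11.22 (median 10.96) and the 4× glands from 10.48 to 11.66 (median 10.73). On day 40 they ran from 9.98 to 11.34 (median 10.78) and from 9.93 to 11.42 (median 10.81), with cow 4 lowest and cow 2 highest in both sides. The group means ran from 10.38 ± 0.78 in 2× on day 21 to 10.91 ± 0.34 in 2× on day 23, and each neighbour in the order differed by less than the SD. The AGPAT1 differences were 1.36, -0.01, -0.26, 0.22, -0.30 and 0.35 on day 21. Their mean was 0.23 (SE 0.17; limma, adjusted p = 0.531), and 0.00 without cow 1. The means on days 23 and 40 were -0.06 (95% interval -0.41 to 0.29) and -0.01 (-0.36 to 0.34), with cows on both sides of 0.

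LPIN1 encodes lipin 1, a phosphatidate phosphatase that is also known as a transcriptional co-regulator of lipid metabolism. The annotated LPIN1 probe set had group means of 6.14 ± 0.50 in 2× on day 40, 6.21 ± 0.43 in 2× on day 21, 6.23 ± 0.55 in 4× on day 40, 6.38 ± 0.35 in 4× on day 21, 6.54 ± 0.46 in 2× on day 23 and 6.59 ± 0.52 in 4× on day 23. Each group overlapped its neighbours, and cow 5 was the highest cow in both sides on days 23 and 40, at 7.04 to 7.49. On day 21 the differences were 0.28, 0.27, 0.54, 0.36, 0.00 and -0.42 for cows 1 to 6. Their mean was 0.17 (SE 0.13; limma, adjusted p = 0.528; 95% interval -0.09 to 0.44), and 0.29 without cow 6, the only cow below 0, where it passed an unadjusted p of 0.05. The means on days 23 and 40 were 0.05 (-0.21 to 0.31) and 0.09 (-0.17 to 0.36).

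The probe set that the study names LPIN1 varied more. On day 21 it ran from 5.36 to 9.57 (median 8.56) in 2× glands and from 8.24 to 10.02 (median 8.98) in 4× glands. On day 23 the 2× glands ran from 8.91 to 10.49 (median 9.41) and the 4× glands from 8.19 to 10.76 (median 9.26), and the sides overlapped widely. The differences on day 21 were 3.04, 0.13, 1.46, -0.04, 0.45 and 0.52, with a mean of 0.93 (SE 0.29; limma, adjusted p = 0.181; exact sign permutation p = 0.062). Without cow 1 the mean was 0.50. The means on days 23 and 40 were -0.13 and 0.23, and the difference moved by -1.06 between days 21 and 23 (SE 0.41; limma, adjusted p = 0.403), or -0.52 without cow 1. As the study chose this probe set on these samples, its direction here is no independent evidence for LPIN1. The study also marks lipin 1 as a gene that differed in an earlier, separate array experiment, whose data were not used here. The study's LPIN1 probe set followed the annotated one with r = 0.75 in levels over 36 arrays, and with r = 0.35 in differences over 18 pairs.

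DGAT1 and DGAT2 are unrelated enzymes that carry out the last acylation. DGAT1 varied little: its values lay between 8.34 and 9.40 over all arrays, and its group means between 8.78 ± 0.27 (4× on day 23) and 8.93 ± 0.28 (2× on day 23), each within the SD of the next. Its differences on day 21 were 0.16, 0.09, -0.21, 0.20, -0.31 and 0.16, a mean of 0.02 (SE 0.08; 95% interval -0.16 to 0.19). Its mean on day 23 was -0.15 (SE 0.08; -0.32 to 0.03), and on day 40 it was -0.03 (-0.21 to 0.15). A DGAT1 difference of up to about 0.2 on day 21 was thus within the interval.

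DGAT2 lay between 4.18 and 5.18 over all arrays and was dim in the mean (4.53), so its values may hold much background. In 2× glands on day 40 it ran from 4.18 to 4.69 with a median of 4.36. The 4× glands of that day ran from 4.41 to 5.18 with a median of 4.64. The sides overlapped, and cow 4 was highest in both, at 4.69 and 5.18. The differences on day 40 were 0.39, 0.40, 0.21, 0.48, -0.17 and 0.40, with a mean of 0.29 (SE 0.10; limma, adjusted p = 0.183; exact sign permutation p = 0.062), 1.22-fold. On days 21 and 23 the means were -0.06 (95% interval -0.27 to 0.15) and -0.03 (-0.24 to 0.18). The change of the difference from day 21 to day 40 was 0.35 (SE 0.14; limma, adjusted p = 0.789), with 5 of 6 cows positive. Of all probe sets 56.6% had a positive difference on day 40. Adipocyte markers moved in the same direction as DGAT2, with 12 of 12 probe sets (7 genes) positive and a median of 0.18. Of these, 4 passed an unadjusted p of 0.05, beside 11.6% of all probe sets. They were LEP (0.21 and 0.24) and ADIPOQ (0.19), both dim, and a LIPE probe set (0.30) with a mean level of 5.47. The brightest adipocyte probe sets differed less, and none of them passed. FABP4 was at 0.05 in each of its probe sets (mean levels 12.11 and 8.71). CFD was at 0.10 (mean level 8.87) and another LIPE probe set at 0.11 (mean level 7.39). In the cows other than cow 1, CFD was at -0.03 and FABP4 at 0.01 and -0.04. Without cow 1 the adipocyte median was 0.14 and 1 was higher past that rule, beside 7.02% of all probe sets. The DGAT2 mean was then 0.26. Of 15 skeletal muscle probe sets, 10 of them dim, 12 were positive on day 40 and 3 negative. Of 12 fibroblast and stroma probe sets 6 were positive and 6 negative, and of 10 endothelial ones 4 and 6. A dim COL1A1 probe set (mean level 4.55) was at 0.29 and the brighter one (9.22) at -0.10. The summed adipocyte signal ran from 12.27 to 12.69 in 2× and from 12.45 to 12.71 in 4× glands on day 40, and its part in the DGAT2 difference was not tested.

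**Figure D3:**
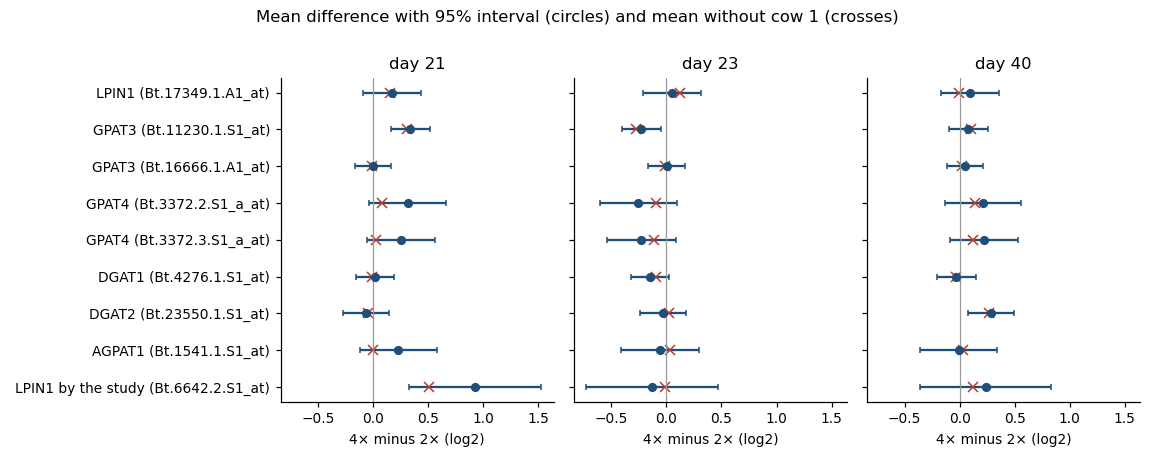
Mean difference between the 4× and the 2× side in log2 units with its 95% interval (circles and bars) and the mean of 5 cows without cow 1 (crosses), for each probe set on days 21, 23 and 40. GPAT3 (Bt.11230.1.S1_at) lies above 0 on day 21 (0.34) and below 0 on day 23 (-0.23), and the crosses of GPAT4 and AGPAT1 on day 21 lie close to 0 (0.08, 0.02 and 0.00).

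Counted over the 8 members, 1 was higher and 0 were lower in the 4× side on day 21 at an unadjusted p of 0.05. Of all probe sets tested, 8.02% were higher and 7.91% lower by that rule, and 0% passed the adjusted p. On day 23, 0 members were higher and 1 (GPAT3) was lower, against 1.39% higher and 1.26% lower of all. On day 40, 1 member (DGAT2) was higher and 0 were lower, against 11.6% higher and 8.86% lower. With so few members these counts do not stand out from the background. The median difference of the members was 0.20, -0.10 and 0.09 on the 3 days, beside 0.02, 0.00 and 0.03 over all probe sets tested. Without cow 1 the median of the members on day 21 was 0.01, as was that of all probe sets, and 3.19% of all were higher and 3.35% lower. Epithelial markers moved with the day 21 differences: 12 of 13 probe sets (10 genes) were positive, beside 55.6% of all. Their median was 0.08, and 3 passed while 0 were lower. The 3 were 1 probe set of XDH (0.29, or 0.06 without cow 1), BTN1A1 (0.20, or 0.04) and 1 probe set of CSN2 (0.25, or 0.17). That CSN2 probe set had a mean level of 5.18. The brighter CSN2 probe sets were at 0.03 and 0.07, and the other XDH probe set was at 0.14. The median of the epithelial markers was 0.01 without cow 1, where 0 passed, and their sum ran from 17.38 to 17.73 in 2× and from 17.65 to 17.74 in 4× glands. Their part in the members' values was not tested. Without the pairing of sides within cows, 0 members passed the unadjusted rule on day 21 and 0 on day 23.

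For the change of the difference from day 21 to day 23, 3 members (GPAT3 and both probe sets of GPAT4) had a negative change past an unadjusted p of 0.05 and 0 a positive one. Of all probe sets 5.15% were negative and 5.65% positive by that rule. Without cow 1 or without cow 3, 1 of the 3 calls was left, and without cow 5 there were 5. Of all probe sets 2.27% were negative and 2.70% positive without cow 1. For the change from day 21 to day 40, 1 member (DGAT2) was positive and 1 (GPAT3) negative, against 2.71% and 3.30% of all. Without cow 1, 0 members passed either way, against 2.35% positive and 2.02% negative of all. The changes share the day 21 differences, so they are not independent of the day 21 results.

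Within the 2× glands, 5 of the 8 member probe sets had a higher level on day 23 than on day 21 at an unadjusted p of 0.05 and 0 had a lower one, against 7.50% higher and 8.65% lower of all tested. These were GPAT3 (Bt.11230.1.S1_at), both probe sets of GPAT4, AGPAT1 and LPIN1. For GPAT4 the day 23 level was 0.48 higher (SE 0.17; limma, adjusted p = 0.187) in Bt.3372.2.S1_a_at and 0.36 (SE 0.15; adjusted p = 0.239) in the other. AGPAT1 was 0.54 higher (SE 0.22; limma, adjusted p = 0.232), and LPIN1 0.33 (SE 0.16; limma, adjusted p = 0.295). Cow 1 had changes of 1.92, 1.55, 2.07 and 0.90 in these 4 probe sets. Without that cow the means were 0.19, 0.12, 0.23 and 0.22. Of the 8 members 0 then passed, beside 2.70% of all probe sets higher and 3.31% lower. Without cow 3, 3 members passed. The study's LPIN1 probe set was higher on day 23 in 6 of 6 cows, by 1.43 (SE 0.35; limma, adjusted p = 0.168), or 0.85 without cow 1. The median over the members was 0.34 and over all probe sets 0.02, and without cow 1 these were 0.15 and 0.02. The epithelial marker probe sets moved with this: 12 of 13 were higher on day 23, beside 55.1% of all. Their median was 0.07, and 3 passed an unadjusted p of 0.05. Among the 3 was a CSN2 probe set with a mean level of 5.18 (0.43), while the brighter CSN2 probe sets were at 0.04 and 0.06. Without cow 1 the median of the epithelial markers was 0.01, and 1 passed. Their sum ran from 17.38 to 17.73 on day 21 and from 17.63 to 17.73 on day 23, and their part in the result was not tested.

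**Figure D4:**
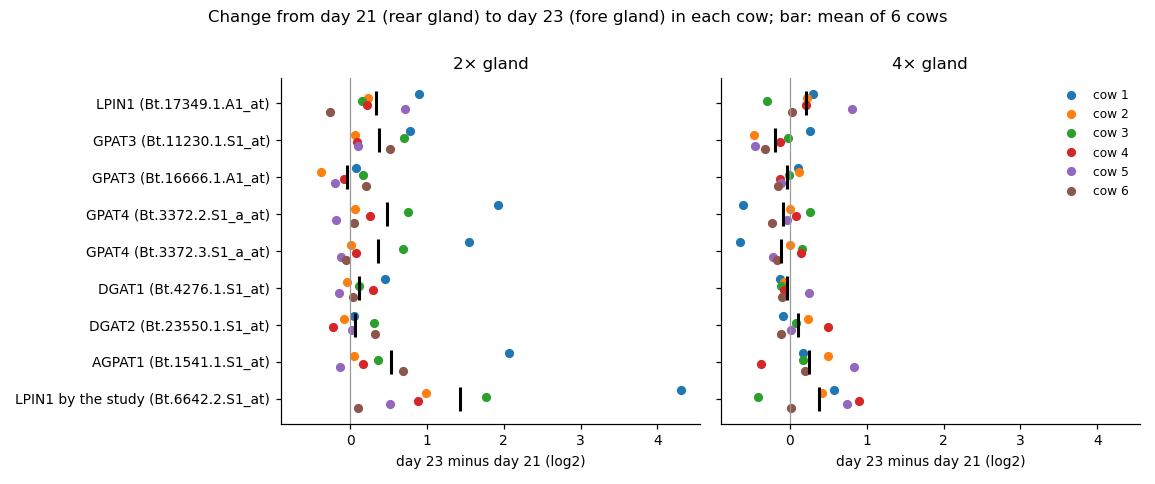
Log2 change from day 21 (rear gland) to day 23 (fore gland) in the 2× and in the 4× gland of each cow, with a bar for the mean of 6 cows. In the 2× gland the 5 points of cow 1 for GPAT4, AGPAT1, LPIN1 and the study's LPIN1 probe set lie at 0.90 to 4.31, and in the 4× gland the means of all 9 probe sets lie between -0.19 and 0.37.

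Within the 4× glands, 0 members passed an unadjusted p of 0.05 between days 23 and 21, and 1.82% of all probe sets were higher and 1.98% lower. Whether the 2× and 4× glands differed in this change is the test of the change of the difference given above, which GPAT3 and GPAT4 passed at an unadjusted p and AGPAT1 (-0.29, adjusted p = 0.673) and LPIN1 (-0.12, adjusted p = 0.832) did not (limma). On day 40 against day 21, 1 member was higher in the 2× gland (GPAT3, 0.36, SE 0.15; limma, adjusted p = 0.628) and 0 were lower, where 3.06% of all probe sets were higher and 3.73% lower. GPAT3 was at or above its day 21 level in 6 of 6 cows there, but the mean was 0.28 without cow 1 and no longer passed, nor did it without the pairing by cow. In the 4× gland 1 member was higher (DGAT2, 0.24, SE 0.11; limma, adjusted p = 0.545), where 3.44% of all were higher and 5.24% lower. That DGAT2 value was 0.10 without cow 4, whose own change was 0.94, and 0.23 without cow 1, and passed in neither case. At an adjusted p of 0.05, 0 members passed in any of these 4 comparisons, where 0.00416% of all probe sets passed on day 40 in the 2× gland, 0.0583% in the 4× gland and 0% on day 23 in either (limma).

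Over the 18 differences, the members followed each other unevenly. DGAT1 and AGPAT1 had r = 0.72 (Spearman's rho 0.81), and 0.76 without cow 1. GPAT4 (Bt.3372.2.S1_a_at) and AGPAT1 had r = 0.70, and 0.36 without cow 1. The other GPAT4 probe set (Bt.3372.3.S1_a_at) and AGPAT1 had r = 0.58, and -0.08 without cow 1. GPAT3 (Bt.11230.1.S1_at) had 0.32 with GPAT4 (Bt.3372.2.S1_a_at) and 0.33 with DGAT1. DGAT1 and DGAT2 had 0.17. Each cow gives 3 of the 18 differences, so these are descriptions without a test.

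Among named probe sets of other genes with a mean of at least 5, those most like each member over the 18 differences were found by Pearson's r. For GPAT3 they were ATF4, a transcription factor of the amino acid and stress response (r = 0.82, or 0.73 without the 2 pairs farthest from the median of GPAT3), FMNL2, UNC13B, the amino acid transporter SLC7A5 (r = 0.77) and the tyrosyl-tRNA synthetase YARS1 (r = 0.77). For GPAT4 they were GGT1 (r = 0.94, or 0.79 without the 2 farthest pairs, both of cow 1), the acetyl-CoA carboxylase ACACA (r = 0.93, or 0.84), SHC1, TRAF3IP3 and SMAP2. For AGPAT1 they were TMEM63A (r = 0.95, or 0.90), EFHD1, TRABD, ERGIC1 and GRK2. For LPIN1 they were TRUB2 (r = 0.85, or 0.76), CASKIN2, GAPVD1, PNMT and SYT11, and for the study's LPIN1 probe set RELL1 (r = 0.96, or 0.88), MID1, SEC62, WIPI1 and F2R. For DGAT1 they were GUCD1 (r = 0.90, or 0.92), MARCHF2, HSF1, ANAPC15 and GPS1. For the dim DGAT2 they were HAUS8 (r = 0.78, or 0.69), SHMT1, ARHGDIG, EEFSEC and TOX2. All of these points share cows and arrays, and the genes were the highest of all those compared.

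Of 23 probe sets for acyltransferases, lipins and phosphatidate phosphatases outside the members, 2 were higher and 2 lower in the 4× side on day 21 at an unadjusted p of 0.05. Their median was -0.03, and of all probe sets 8.02% were higher and 7.91% lower. AGPAT5 was lower by 0.47 (SE 0.15; limma, adjusted p = 0.182), in 6 of 6 cows. PLPP2 had a difference of -0.28 (-0.17 without cow 1), and PLPP1 one of 0.30. GPAM, the mitochondrial enzyme of the first acylation, was higher by 0.29 (SE 0.11; limma, adjusted p = 0.205), or 0.11 without cow 1. The change of its difference from day 21 to day 23 was -0.39 (SE 0.15; limma, adjusted p = 0.405), or -0.18 without cow 1. On day 40 AGPAT3 was higher in the 4× side by 0.32 (SE 0.08; limma, adjusted p = 0.171), and PLPP3 was lower by 0.22. In all, 3 of the 23 were higher and 1 lower on day 40, beside 11.6% and 8.86% of all probe sets, and 0 passed either way on day 23.

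The lists for the substrates of the pathway held more probe sets higher than lower in the 4× side on day 21. These counts were smaller without cow 1, as were those over all probe sets. No other cow was left out for the lists, so cow 1 and the smaller number of cows cannot be told apart. For glycerol 3-phosphate supply 2 of 4 were higher and 0 lower, and 1 was higher without cow 1. They were glycerol kinase GK, by 0.63 (SE 0.20), in 6 of 6 cows, and GPD1, by 0.35 (SE 0.14), which were 0.32 and 0.10 without cow 1. For fatty acid uptake and activation 12 of 25 were higher and 2 lower, with a median of 0.22, and 3 were higher and 1 lower without cow 1, with a median of 0.06. FABP4, which binds fatty acids, was higher by 0.59 (SE 0.16) and 0.31 (SE 0.09) in its probe sets, or 0.41 and 0.20 without cow 1. The acyl-CoA synthetase ACSL5 was lower by 0.60 (SE 0.18), in 6 of 6 cows, with -0.35 without cow 1. The median for fatty acid synthesis and desaturation was 0.10, or 0.06 without cow 1. Of these 16 probe sets 6 were higher and 1 lower, and 0 passed either way without cow 1. Among them ACACA was higher by 0.63 (SE 0.23), in 6 of 6 cows, or 0.34 without cow 1, and ELOVL5 was lower by 0.45 (SE 0.16), with -0.25 without cow 1. None of these passed the adjusted p (limma). Over all probe sets 8.02% were higher and 7.91% lower, and 3.19% and 3.35% without cow 1. FABP4 is also an adipocyte marker: of 12 adipocyte probe sets 3 were higher on day 21 (2 of FABP4 and 1 of LIPE), and 2 without cow 1. Their sum ran from 11.84 to 12.56 in 2× and from 12.45 to 12.75 in 4× glands, and the part of adipocytes was not tested.

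On day 23 these lists held 0 or 1 probe set past an unadjusted p of 0.05 in either direction, beside 1.39% higher and 1.26% lower of all. From day 21 to day 23 the difference moved down for 7 of 25 probe sets of uptake and activation and up for 1. Of all probe sets 5.15% moved down and 5.65% up. Without cow 1 it moved down for 2 of the 25 and up for 0, beside 2.27% and 2.70% of all. Examples were VLDLR at -0.66 (-0.37 without cow 1), the lipoprotein lipase LPL at -0.65 (-0.34) and ACSL5 at 0.77 (0.39). It moved down for 4 of 16 of synthesis and desaturation, with ACACB at -0.28 and FASN at -0.28 (-0.12 without cow 1), and for 0 of them without cow 1. It moved down for 1 of 4 of glycerol 3-phosphate supply, with GK at -0.83 (-0.45 without cow 1). On day 40, 3 of 25, 1 of 16 and 1 of 4 were higher in the 4× side and 1, 3 and 0 were lower, beside 11.6% higher and 8.86% lower of all. All 3 of the first were probe sets of the lipoprotein receptor VLDLR (0.16, 0.27 and 0.34). Their mean levels were 3.11, 5.01 and 5.98, so the one at 0.16 was dim. The VLDLR change of -0.66 given above came from a brighter probe set (mean level 9.73), which was not among these 3. The others higher on day 40 were ME1 (0.23) and GPD1L (0.34).

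For regulators of milk fat genes there were 37 probe sets. On day 21 without cow 1, 5 were higher in the 4× side and 0 lower, beside 3.19% and 3.35% of all. With all 6 cows 8 were higher and 1 lower, beside 8.02% and 7.91% of all. They included the AMP-activated kinase subunit PRKAA2 (0.47, SE 0.13), the nuclear receptor PPARD (0.24, SE 0.07) and the SREBP protease MBTPS2 (0.27, SE 0.09), each in 6 of 6 cows (limma, adjusted p between 0.180 and 0.184). SREBF1, the sterol-regulated activator of lipogenic genes, had differences of 0.16, 0.09, 0.25 and 0.07 in its 4 probe sets on day 21, none past an unadjusted p of 0.05. On day 40, 7 of 37 were higher and 3 lower, beside 11.6% and 8.86% of all. Without cow 1, 3 were higher and 3 lower, beside 7.02% and 5.93% of all. Both probe sets of the SREBP chaperone SCAP were at 0.24 and 0.23 and MLXIPL was at 0.30. The SREBF1 probe set with a mean level of 5.57 also passed an unadjusted p of 0.05 on day 40. It was at 0.31 (SE 0.11, limma, adjusted p = 0.183), or 0.29 without cow 1. The brighter SREBF1 probe sets were at -0.11, 0.01 and -0.00. From day 21 to day 23 in the 2× gland, SREBF1 rose past that unadjusted p at 0.61 and 0.26, or 0.21 and 0.06 without cow 1. The other SREBF1 probe sets were at 0.20 and 0.13 there.

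Of 15 probe sets of the phospholipid branch, which draws on the same intermediates, 2 were higher on day 21 and 0 lower, and 0 were higher without cow 1. The 2 were PEMT at 0.33 (0.13 without cow 1) and CHPT1 at 0.29 (0.04). Over all probe sets 8.02% were higher and 7.91% lower on day 21, and 3.19% and 3.35% without cow 1. On day 40, 2 of the 15 were higher and 3 lower (among them DGKD at -0.23 and CEPT1 at -0.25), beside 11.6% and 8.86% of all. Of 19 for lipolysis and lipid droplets, 6 were higher and 0 lower on day 21, beside 8.02% and 7.91% of all, and 0 either way without cow 1. Examples were BSCL2, at 0.27 and 0.32 in its probe sets (0.13 and 0.19 without cow 1), and LIPE at 0.27. On day 40, 3 of the 19 were higher and 0 lower (CIDEB 0.35, LIPE 0.30, G0S2 0.40), beside 11.6% and 8.86% of all.

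Of the markers of other cells, all 4 neutrophil probe sets had a negative difference on day 21, with a median of -0.62, and 2 passed an unadjusted p of 0.05. Without cow 1 the median was -0.39, and 2 passed. Their sum ran from 7.52 to 9.58 in 2× and from 7.53 to 7.95 in 4× glands. Of 16 macrophage and leukocyte probe sets 2 were higher and 2 lower, of 12 fibroblast and stroma probe sets 0 and 1, of 10 endothelial ones 2 and 0, of 7 myoepithelial ones 0 and 1, and of 15 skeletal muscle ones 1 and 1. With 8.02% higher and 7.91% lower of all probe sets, these small counts are given as descriptions only. Whether any of these cell types moved the members' values was not tested.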

How the data were processed

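Gene expression was measured in total RNA of 36 mammary biopsies on GeneChip Bovine Genome Arrays. The authors computed probe signals and applied the Robust Multichip Average, so the deposited values are log2 signals per probe set, already background-corrected and normalized across arrays; the version is not given in the sources used here. Such processing draws the arrays toward a common distribution and leaves dim probe sets near background. Genes came from the array annotation: of 24128 probe sets 13318 had 1 symbol, 86 several and 10724 none, and 112 controls were left out. Symbols were compared with RefSeq through Entrez identifiers, and 0 were updated.

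Differences between sides (4× minus 2×) were taken within each cow, and the 18 differences were fitted with limma 3.58.1 in R 4.3.3 (a mean per day, shared spread, moderated variances), with Benjamini-Hochberg adjustment over 24016 probe sets and 95% intervals from the same fit. Changes between days were contrasts of that fit. Days within glands were compared on the 36 arrays with cow as a block. The sample titles give replicate numbers 1 to 6, and the same number was taken as the same cow on every day. Within a day, both sides of a cow deviated together in 18 of 18 pairs (r from 0.24 to 0.67). These values do not check that a number is the same cow on different days. Single values were also tested by exact permutation of the signs of the 6 differences (two-sided; smallest p 0.031). The fits were tested on simulated data with 200 changed probe sets. Alternatives dropped the block, made it random, changed the spread, left out dim probe sets, rescaled the arrays to their medians or to 5 reference genes, and left out each cow. Leaving out only the day 21 pair of cow 1, counting unadjusted p in the comparisons of days, and counting the lists without cow 1 were added after seeing the data.

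The members and gene lists were chosen with earlier results of these data known. Named beside the members are the 3 probe sets with the smallest p under 0.05 of each list and comparison, of which some are printed, with GPAM, SREBF1 and the 5 genes most like each member. Single probe sets of the cell marker lists are named only as descriptions. Sequences and genome positions of the probe sets were not used here.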

Additional observations from a re-analysis of the deposited data

Results flagged for a closer look

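In 11 of 81 groups of 6 values (levels of a probe set in a group, or its differences on a day), the highest or lowest cow was farther from the others than Dixon's limit. Chance flags about 1 in 20 groups. On day 21 the difference between sides of cow 1 stood apart in both GPAT4 probe sets, at 1.48 (Bt.3372.2.S1_a_at) and 1.39 (Bt.3372.3.S1_a_at). On day 23 the difference of cow 1 in Bt.3372.3.S1_a_at stood apart in the other direction, at -0.81, with its 4× gland at 9.71. The 2× gland of cow 5 on day 23 was low for GPAT3 (Bt.11230.1.S1_at, 6.00) and for AGPAT1 (10.27). On day 40 the 4× gland of cow 5 was high for GPAT4 (Bt.3372.2.S1_a_at, 11.28), that of cow 2 was high for GPAT3 (Bt.11230.1.S1_at, 7.29), and that of cow 4 was high for DGAT2 (5.18) and for the dim GPAT3 probe set (Bt.16666.1.A1_at, 3.66). The 2× gland of cow 2 on day 21 was high for that dim probe set (3.67).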

How the results depend on the processing

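The count of member probe sets past an unadjusted p of 0.05 is 1 on each of days 21, 23 and 40, 3 for the change of the difference from day 21 to day 23, 5 for day 23 against day 21 in the 2× gland, and 1 for day 40 against day 21 in each gland. With no replicate block (no pairing by cow) these became 0 on day 21, 0 on day 23, 1 for the change, 0 for the 2× gland on day 23 and 0 for the 2× gland on day 40, and day 40 again had 1. With cow as a random replicate block they were 0 on day 23 and 1 for the change. With a spread of its own for each day they were 2 on day 23, 2 on day 40 and 1 for the change; without moderation, with either spread, the change gave 1. Leaving out dim probe sets, DGAT2 among them, gave 0 on day 40 and 0 for the 4× gland on day 40, and scaling to reference genes, which moved single arrays by -0.23 to 0.25, gave 0 for the latter. Without the day 21 pair of cow 1 the counts were 2 on day 23, 2 on day 40 and 1 for the change. With 1 cow left out at a time they ran from 1 to 2 on day 21, 0 to 1 on day 23, 1 to 5 for the change, 0 to 5 for the 2× gland on day 23, 0 to 2 for the 2× gland on day 40 and 0 to 1 for the 4× gland on day 40. The change of the GPAT3 difference (Bt.11230.1.S1_at) and its day 21 difference passed under every alternative run, except the day 21 difference with no replicate block. At an adjusted p of 0.05, 0 members passed in the 4 comparisons of days within glands under every alternative run there. The cause of these shifts was not tested, apart from the removal of DGAT2 by the filter.

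Signs turned in values that had not passed the unadjusted p. Scaling to reference genes turned the dim GPAT3 probe set (Bt.16666.1.A1_at) to 0.016 on day 21, -0.024 on day 23, -0.040 for the change and 0.015 for the 2× gland on day 23, and the DGAT2 change to -0.0093. Median centring gave -0.0012 for the same GPAT3 probe set on day 23, and without the day 21 pair of cow 1 DGAT1 was at -0.013 on day 21. With 1 cow left out at a time, the dim GPAT3 probe set ran from -0.040 to 0.055 on day 21, from -0.041 to 0.053 on day 23, from -0.015 to 0.11 on day 40, from -0.095 to 0.078 for the change and from -0.085 to 0.031 for the 2× gland on day 23. DGAT1 ran from -0.021 to 0.080 on day 21 and from -0.061 to 0.016 on day 40. LPIN1 ran from -0.0074 to 0.13 on day 23 and from -0.020 to 0.17 on day 40. DGAT2 ran from -0.13 to 0.034 on day 23 and from -0.10 to 0.13 for the change. AGPAT1 ran from -0.20 to 0.036 on day 23, from -0.071 to 0.034 on day 40 and from -0.54 to 0.036 for the change. AGPAT1 turned for the change without cow 1. The number of cows and the nearness of DGAT2 and of 1 GPAT3 probe set to background limit the precision. The spread options and the day 21 pair were not run for the comparisons of days within glands, where they have no counterpart in the fit on 36 arrays. The exact sign permutation gave p = 0.031 for GPAT3 on day 21 and for its change.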
